A study of Arabidopsis thaliana and Zea mays subsp. mays with 14 samples.

Results

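The WRKY genes of Arabidopsis encode a large plant family of transcription factors. The members described here were the nuclear protein-coding genes whose symbol or synonym is WRKY followed by a number in the RefSeq annotation. There were 71 of them among 27444 nuclear protein-coding genes. A WRKY protein binds W-box elements in promoters through a conserved domain that carries the WRKY motif and a zinc finger. Many members act downstream of immune receptors, MAP kinase cascades and salicylic acid, and others act in senescence, phosphate supply, root hairs, seeds and pollen. The family is divided into group I, whose proteins carry a pair of WRKY domains, the groups IIa to IIe with a lone domain, and group III with a different zinc finger.

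Open chromatin was measured by ATAC-seq on sorted nuclei (FANS, fluorescence-activated nuclei sorting). The assay uses the transposase Tn5, which cuts and tags DNA that is accessible within chromatin. The 10 libraries formed 5 groups of 2: sorted nuclei of Col-0 roots; 500 sorted nuclei of Col-0 whole seedlings; nuclei of Col-0 whole seedlings labelled crude; sorted nuclei of whole seedlings of the 35S:H2AX-GFP line, a transgene in Col-0 whose histone fusion is driven by the 35S promoter; and 50000 sorted nuclei of Col-0 whole seedlings, called sorted seedlings here. Apart from the 500-nuclei libraries, the title of each library gives 50000 nuclei. All plants were 7 days old, grew on sugar-containing medium with 16 hours of light a day, and were wild type except for the transgenic line. The extraction text attached to the crude nuclei is the one attached to the sorted nuclei, whole seedlings contain roots, and separate cultures are not stated for replicate libraries, so the p-values measure a spread that may be technical.

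The measure for a gene was the number of bases covered by the authors' called accessible regions within 1000 bp outside and 200 bp inside each of its ends, at most 2400 bases. It records where a region was called and how wide it was, not how strong it was. Libraries held 22138 to 29309 regions that covered 13.78 to 24.61 Mb, and their read depth is not known. Each library pools all cell types of the tissue, so an opening in fewer cells and a weaker opening in each cell cannot be told apart. The tissue labels were checked on 9 photosynthesis and chloroplast genes. Their mean coverage relative to all genes was 0.539 ± 0.012 in root libraries (SD, n = 2) and 2.542 ± 0.501 in the 8 whole-seedling libraries (SD, n = 8), and 5 of the 9 fell in roots against sorted seedlings by limma at an adjusted p under 0.05. RBCS2B, which encodes a small subunit of Rubisco, had 0 and 0 bases in roots, against 2122 and 2323 in sorted seedlings. Of 9 root genes, BHLH38, a regulator of iron uptake, and PHO1, which loads phosphate into the xylem, rose in roots against sorted seedlings (adjusted p = 0.0346 and 0.0424 by limma), while PLT1, a regulator of the root stem cell niche, was at 0 in all 10 libraries. Of the 8 root genes tested, 5 were higher and 3 lower in roots than in sorted seedlings. The lower ones, not called, were the patterning genes SHR (-293.5 bases) and SCR (-296.0 bases) and the niche gene WOX5 (-28.5 bases). A comparison of groups tested each gene with limma across all 23893 genes that were covered in at least 2 libraries, with Benjamini-Hochberg adjusted p-values.

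Called regions lay near most WRKY genes. In all, 52 of the 71 members were covered in every one of the 10 libraries, as were 59.4% of all genes, and 15 were covered in 1 to 9 libraries, as were 30.3% of all genes. WRKY34, which acts in pollen, WRKY56, WRKY58 and WRKY68 were covered in none, as were 10.3% of all genes, and WRKY24 had 84 bases in H2AX-GFP replicate 2 and 0 elsewhere. These 5 members were not tested, and the other 66 were. The mean over libraries of the median member was 739.6 bases, against 603.2 bases for the median gene of the genome.

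The 4 members with the highest levels belonged to groups IIb, IId and IIa. WRKY47 of group IIb had the highest mean over the 10 libraries, at 2134.6 bases, followed by WRKY6 at 1973.0 bases, a regulator of senescence and of phosphate export. WRKY15, which acts in stress responses, averaged 1894.9 bases and WRKY60, a group IIa partner of WRKY18 and WRKY40, 1894.5 bases. WRKY65 averaged 1812.9 bases, WRKY11, a negative regulator of basal resistance, 1782.8 bases, and WRKY57, which acts in drought tolerance and senescence, 1638.2 bases. WRKY17, a close relative of WRKY11, averaged 1420.1 bases, WRKY27 1400.5 bases and WRKY36 1374.9 bases. At the low end, above the 5 untested members, stood WRKY64 at 41.7 bases, WRKY66 at 48.6, WRKY12, which acts in stem pith walls, at 83.2, WRKY9 at 141.6 and WRKY74 at 191.7. The median member had 1258.4 bases in group IIb, 1164.4 in group IId, 945.9 in group IIe, 933.2 in group IIa, 710.7 in group I, 586.4 in group IIc and 566.6 in group III.

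**Figure D1:**
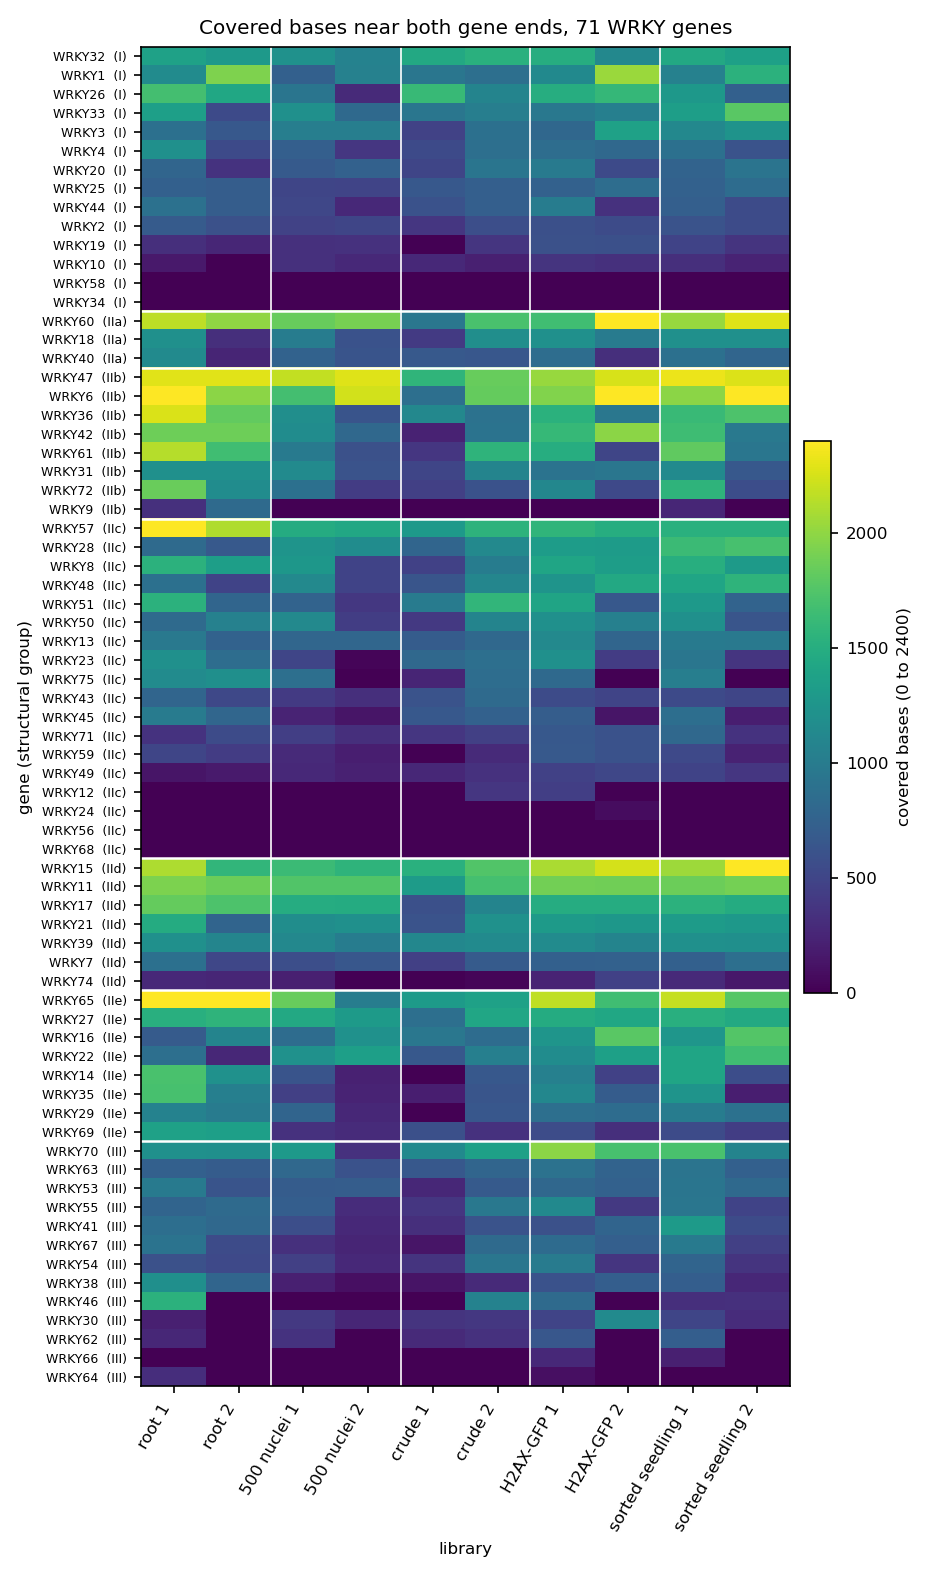
Covered bases near both gene ends (colour, 0 to 2400 bases) for the 71 WRKY genes (rows, ordered by structural group and then by mean level) in the 10 libraries (columns, 2 per group). Groups IIb and IId hold rows that are bright throughout, such as WRKY47 and WRKY11, and WRKY34, WRKY56, WRKY58 and WRKY68 are at 0 in every column.

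The first question was how WRKY genes differed between roots and whole seedlings. Relative to the mean of all genes, the WRKY family was more widely covered in roots: its mean coverage was 1.419 and 1.516 times the mean of all genes in the root libraries, against 1.268 and 1.134 in sorted seedlings. The values were 1.301 and 1.178 with 500 nuclei, 1.074 and 1.168 in crude nuclei, and 1.119 and 1.134 in H2AX-GFP seedlings. Both root libraries thus lay above all 8 whole-seedling libraries, whose ratios ran between 1.074 and 1.301 with a mean of 1.172 ± 0.077 (SD, n = 8), and the roots averaged 1.467 ± 0.068 (SD, n = 2). In bases, the family averaged 1054.1 and 843.1 per gene in roots, against 1009.0 and 823.2 in sorted seedlings, and these overlap. The ratio was a description of the members and was not tested.

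Against sorted seedlings, 34 of the 66 tested members were higher in roots and 31 were lower, with a median difference of 11 bases. Among all genes tested, 30.2% were higher and the median difference was -83.0 bases. Both root libraries lay above both sorted seedling libraries for 11 members (7.71% of all genes) and below both for 11 members (29.5% of all genes). At an adjusted p under 0.05, limma called 1 member higher in roots, WRKY69 (0.105% of all genes), and none lower (0.578% of all genes). In either direction that was 1 of 66 members beside 0.682% of all genes. At an unadjusted p under 0.05 there were 8 members (10.7% of all genes). The direction counts depended on scaling. After quantile normalization 49 members were higher and 17 lower. Of all genes 13750 were higher and 10142 lower, with a median difference of 30.4 bases. With each library divided by its covered length 46 members were higher and 19 lower. Of all genes 12393 were then higher and 11176 lower, and their median was above 0 as well. Across all genes, 25 were called higher and 138 lower, against 119 and 160 after quantile normalization and 24 and 22 after division by covered length.

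Against the mean of the 4 whole-seedling groups, which include the sorted seedlings and share the root libraries with the comparison above, 43 members were higher in roots and 23 were lower, with a median of 125.8 bases beside -26.2 bases for all genes. Both root libraries lay above all 8 whole-seedling libraries for 9 members (3.87% of all genes) and below all 8 for 3 members (5.72% of all genes). WRKY69 and WRKY57 were called higher (0.603% of all genes) and no member was called lower (1.41% of all genes), which makes 2 of 66 members beside 2.01% of all genes in either direction. At an unadjusted p under 0.05 there were 15 members (14% of all genes). The calls rested on both root libraries, and without 1 of them the root group holds 1 library. Without root replicate 1 the median difference of the members was 47.2 bases, beside -105.9 bases for all genes. Without root replicate 2 it was 220.4 bases, beside 43.5 bases for all genes.

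**Figure D2:**
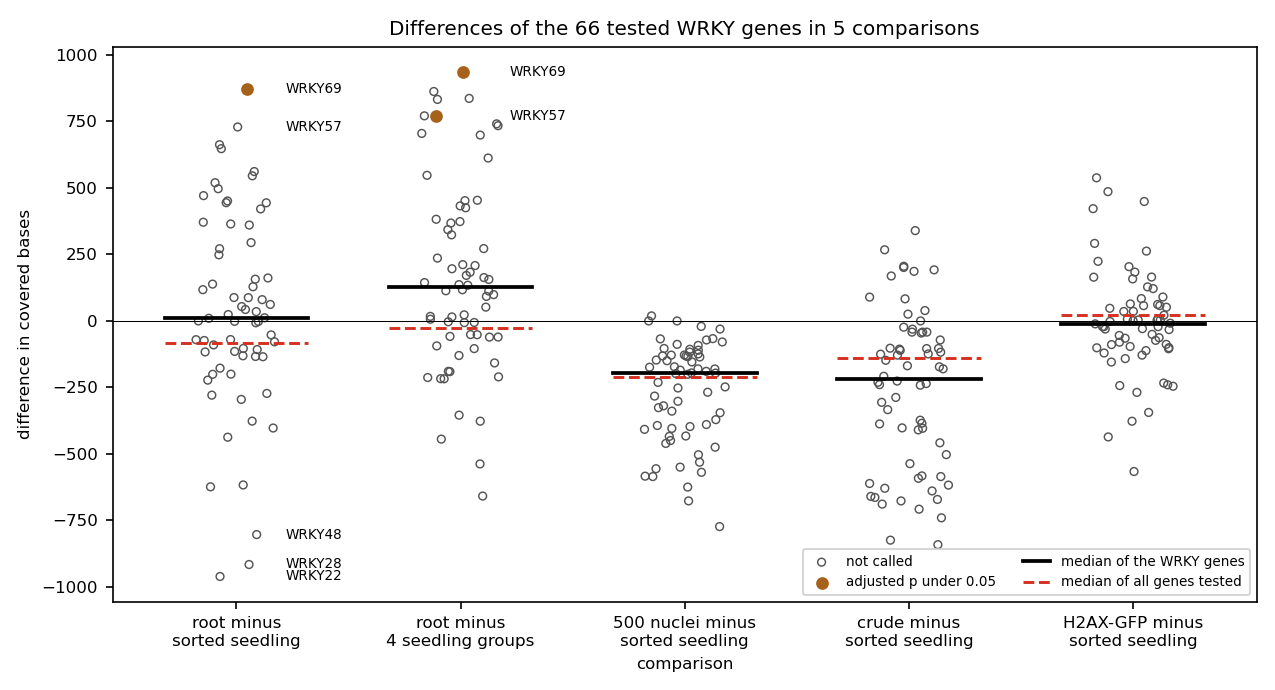
Difference in covered bases for each of the 66 tested WRKY genes (points, filled where limma's adjusted p was under 0.05) in 5 comparisons, with the median of the WRKY genes (black line) and of all genes tested (dashed red line). WRKY69 is filled in both root comparisons and WRKY57 against the 4 whole-seedling groups, and no point is filled in the other 3 comparisons.

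Group IIb stood highest relative to the genome in roots. Its 8 genes averaged 2.414 and 2.881 times the mean of all genes in roots, against 1.945 and 1.642 in sorted seedlings, and between 1.283 and 1.990 over the 8 whole-seedling libraries. Against sorted seedlings 6 of the 8 were higher, with a median of 404.2 bases, and against the 4 whole-seedling groups all 8 were, with a median of 626.1 bases. No group IIb member passed the test in either comparison. All 8 were also higher against the 4 groups under the 2 other scalings and without either root library. The root ratios of group IIe, 1.907 and 2.228, also lay above its highest whole-seedling ratio, 1.663. So did those of group IIc, 1.056 and 1.169, against 1.037. In groups I, IIa, IId and III the root and whole-seedling ratios overlapped.

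WRKY36, which acts in hypocotyl growth and UV-B responses, had 2261 and 1821 bases in roots, against 1626 and 1727 in sorted seedlings. Over the 8 whole-seedling libraries it had 624 bases at the lowest, 1152.5 at the median and 1727 at the highest, so both root libraries lay above all of them. The difference from the 4 groups was 832.6 bases with an adjusted p of 0.129 by limma. WRKY31 was covered over 1200 and 1200 bases in roots, against 1153 and 658 in sorted seedlings. WRKY61 had 2133 and 1662 bases in roots, against 1814 and 942 in sorted seedlings, and these overlap. WRKY72, which acts in basal immunity, had 1851 and 1164 bases in roots, against 1563 and 564 in sorted seedlings. WRKY47 had 2293 and 2290 bases in roots, against 2328 and 2269 in sorted seedlings, and 1569 bases at the lowest, in crude replicate 1.

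The phosphate and root list held WRKY6, WRKY9, WRKY23, WRKY42, WRKY45 and WRKY75, of which WRKY6, WRKY9 and WRKY42 are also in group IIb. Its mean coverage relative to all genes was 1.786 and 2.254 in roots, against 1.410 and 0.905 in sorted seedlings, and lay between 0.905 and 1.410 over the 8 whole-seedling libraries. Of its 6 members, 5 were higher in roots than in sorted seedlings (median 411.0 bases) and 6 were higher than the 4 whole-seedling groups (median 489.9 bases), and none passed the test.

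WRKY75, which is induced by phosphate starvation and restrains root hairs, had 1158 and 1197 bases in roots, against 1030 and 0 in sorted seedlings. With 500 nuclei it had 872 and 0 bases, in crude nuclei 253 and 855, and in H2AX-GFP seedlings 821 and 0. Both root libraries lay above all 8 whole-seedling libraries, but 3 whole-seedling libraries were at 0 and the adjusted p was 0.769 against sorted seedlings and 0.464 against the 4 groups (limma). WRKY42, which regulates PHO1 and the phosphate transporter gene PHT1;1, had 1873 and 1873 bases in roots, against 1651 and 972 in sorted seedlings. H2AX-GFP replicate 2 was higher than the roots, at 1985 bases. WRKY45, an activator of PHT1;1, had 996 and 789 bases in roots, against 866 and 198 in sorted seedlings. WRKY9, which acts in root suberin formation, had 332 and 827 bases in roots, against 257 and 0 in sorted seedlings, and 0 in the other 6 whole-seedling libraries. The difference of WRKY9 from sorted seedlings was 451.0 ± 159.8 bases (SE), with an adjusted p of 0.339 by limma, and from the 4 groups its adjusted p was 0.0856. WRKY23, which acts downstream of auxin in roots, had 1200 and 855 bases in roots, against 941 and 372 in sorted seedlings. WRKY6, a repressor of PHO1, had 2400 and 1981 bases in roots, against 1984 and 2400 in sorted seedlings, with no separation.

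**Figure D3:**
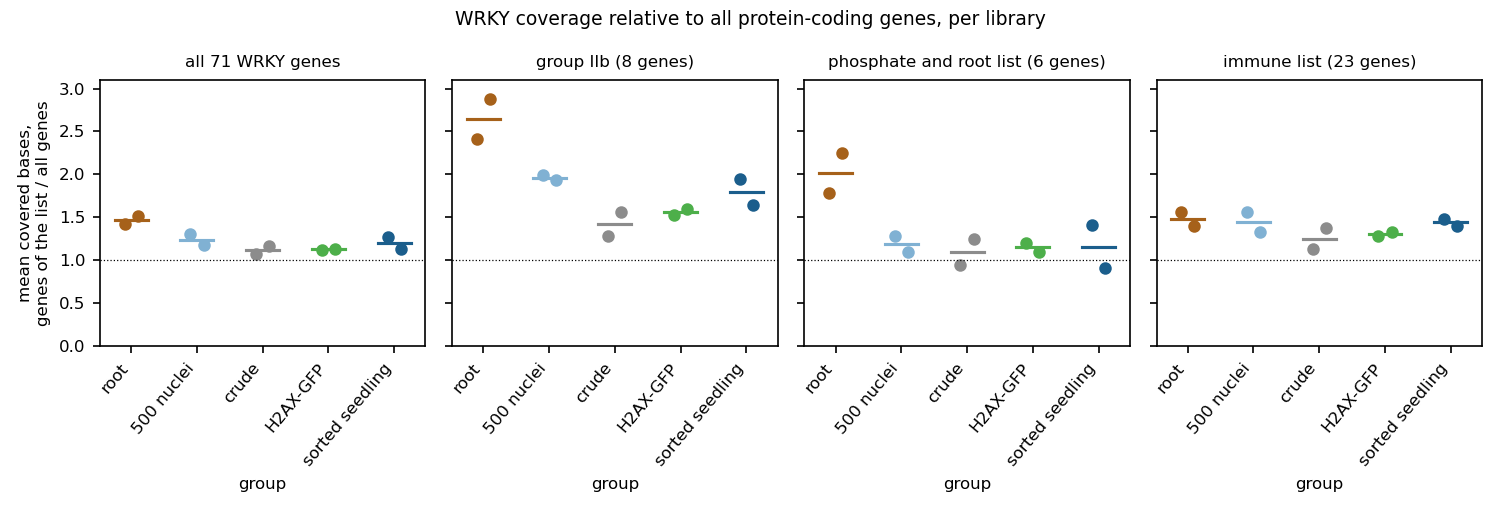
Mean covered bases of a list of WRKY genes divided by the mean of all genes (vertical axis), for each library (points) and group (horizontal bars are group means, n = 2), with a dotted line at 1. For all 71 genes, for group IIb and for the phosphate and root list both root points lie above every whole-seedling point, and for the immune list they overlap.

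Each gene end was also tested alone. At the lower-coordinate end 52 members were tested: 1 was called higher (0.297% of all genes) and 0 lower (1.04% of all genes) against sorted seedlings, and 2 higher (0.828% of all genes) and 1 lower (1.81% of all genes) against the 4 groups. At the higher-coordinate end 51 were tested: 1 was called higher (0.397% of all genes) and 1 lower (1.28% of all genes) against sorted seedlings, and 1 higher (0.952% of all genes) and 1 lower (1.96% of all genes) against the 4 groups. These calls were WRKY57, WRKY17 and WRKY22 at the lower end and WRKY69 and WRKY28 at the higher end, and each is described with its gene.

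On both ends together, the member with the lowest adjusted p belonged to group IIe. WRKY69 (AT3G58710, chromosome 3) had 1372 and 1357 bases in roots, against 550 and 437 in sorted seedlings. Over the 8 whole-seedling libraries it had 299 bases at the lowest, 390.0 at the median and 582 at the highest, so both root libraries lay far above all of them. The difference was 871.0 ± 140.2 bases (SE) against sorted seedlings, with an adjusted p of 0.0491 by limma, and 934.9 ± 110.8 bases (SE) against the 4 groups, with an adjusted p of 0.0109. In root replicate 1 the region ran from 21714411 to 21717313 on chromosome 3 (TAIR10), over the whole gene, and in root replicate 2 from 21714342 to 21717304. In sorted seedlings the region ended inside the gene, 1464 and 1508 bases from its lower-coordinate end, where the gene is 2006 bases long. The window at the higher-coordinate end had 597 and 588 covered bases in roots, against 0 and 0 in sorted seedlings, and was also covered in crude replicate 1, over 241 bases. That end lies in the neighbouring gene AT3G58720, and when bases in neighbouring genes were left out the difference of WRKY69 was 278.5 bases from sorted seedlings (adjusted p = 0.284 by limma) and 372.5 bases from the 4 groups (adjusted p = 0.0574).

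WRKY65, also of group IIe, reached the ceiling of 2400 bases in both root libraries, against 2193 and 1765 bases in sorted seedlings and a highest value of 2193 over the 8 whole-seedling libraries. Its adjusted p was 0.799 against sorted seedlings and 0.211 against the 4 groups (limma). WRKY14 had 1707 and 1213 bases in roots, against 1409 and 569 in sorted seedlings, and WRKY35 had 1703 and 1033 bases in roots, against 1243 and 198 in sorted seedlings. Both overlapped. WRKY29, which acts with WRKY22 downstream of the flagellin receptor, had 1068 and 1000 bases in roots, against 1011 and 897 in sorted seedlings. In all, 6 of the 8 group IIe genes were higher in roots than in sorted seedlings (median 250.5 bases), and WRKY22 and WRKY16 were lower.

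WRKY22 had 881 and 268 bases in roots, against 1409 and 1661 in sorted seedlings, with a difference of -960.5 ± 242.4 bases (SE) and an adjusted p of 0.164 by limma. No region was called in roots at the lower-coordinate end, which had 0 and 0 covered bases in roots, against 404 and 461 in sorted seedlings and 305 bases or more in each whole-seedling library. Taken alone, that end gave an adjusted p of 0.0546 against sorted seedlings and 0.0233 against the 4 groups (limma). A gene next to it, AT4G01240, also overlaps the window of WRKY22, and the lower-coordinate end was not tested alone without bases in that gene.

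WRKY28 (AT4G18170, chromosome 4), an activator of the salicylic acid synthesis gene ICS1, had 825 and 674 bases in roots, against 1632 and 1698 in sorted seedlings. Its difference was -915.5 ± 164.0 bases (SE), with an adjusted p of 0.0631 by limma. The whole-seedling libraries ranged from 785 to 1698 bases, so root replicate 1 overlapped the lowest of them, crude replicate 1. The difference of WRKY28 lay at 1 end. At the lower-coordinate end it had 825 and 674 bases in roots, against 954 and 872 in sorted seedlings. At the higher-coordinate end it had 0 and 0 bases in roots, against 678 and 826 in sorted seedlings, and all 8 whole-seedling libraries had a region there, between 307 and 826 bases. Taken alone, the higher-coordinate end of WRKY28 was called lower, with an adjusted p of 0.0112 against sorted seedlings and 0.00911 against the 4 groups (limma). The region at that end ran from 10062824 to 10063501 on chromosome 4 (TAIR10) in sorted seedling replicate 1. No other protein-coding gene lies in the window.

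WRKY57 (AT1G69310, chromosome 1) showed the opposite at its lower-coordinate end. It had 2400 and 2110 bases in roots, against 1525 and 1527 in sorted seedlings, and between 1292 and 1568 bases over the 8 whole-seedling libraries. The difference from sorted seedlings was 729.0 ± 170.6 bases (SE), with an adjusted p of 0.132 by limma, and that from the 4 groups was 771.0 ± 134.9 bases (SE), with an adjusted p of 0.0368. The higher-coordinate end was fully covered, at 1200 bases, in 9 of the 10 libraries, and 1026 bases in crude replicate 1. The lower-coordinate end of WRKY57 had 1200 and 910 bases in roots, against 325 and 327 in sorted seedlings, and taken alone was called higher with an adjusted p of 0.0276 against sorted seedlings and 0.00684 against the 4 groups (limma). In sorted seedlings the region there stopped 676 and 674 bases before the gene, whereas in roots regions reached 1610 and 179 bases into it. No neighbour lies in this window either.

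**Figure D4:**
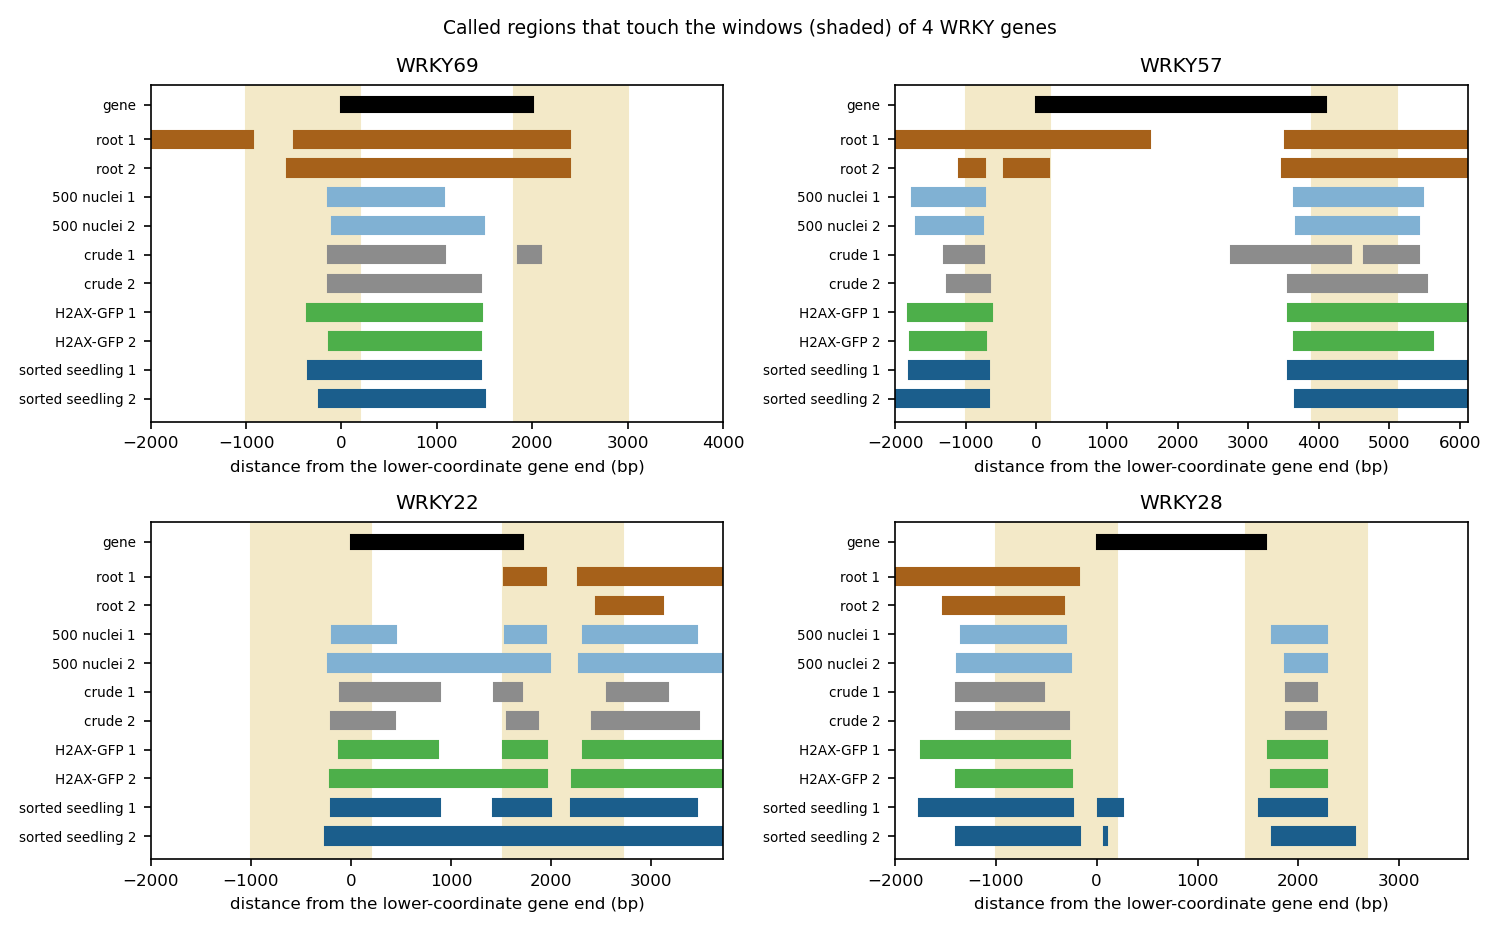
Regions called in each library (coloured bars, rows) around WRKY69, WRKY57, WRKY22 and WRKY28, by distance from the lower-coordinate gene end in bp, with the gene in black and the counted windows shaded. Root bars cross the whole of WRKY69 and reach the lower end of WRKY57, and they are missing at the lower end of WRKY22 and the higher end of WRKY28, where all whole-seedling libraries have a bar.

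The immune and salicylic acid list held 23 members, all tested. Its mean coverage relative to all genes was 1.561 and 1.394 in roots, against 1.477 and 1.402 in sorted seedlings, with no separation. Of the 23, 9 were higher in roots than in sorted seedlings and 14 lower (median -70.5 bases), a direction that turned to 14 higher and 9 lower after quantile normalization (median 67.7 bases) and after division by covered length (median 48.1 bases). None of the 23 passed the test on both ends together in any of the 5 comparisons. WRKY48, a negative regulator of basal resistance, had 887 and 480 bases in roots, against 1410 and 1563 in sorted seedlings (adjusted p = 0.313 by limma). WRKY33, which activates camalexin synthesis, had 1356 and 542 bases in roots, against 1345 and 1786 in sorted seedlings. WRKY38, which with WRKY62 restrains basal defence, had 1195 and 786 bases in roots, against 721 and 266 in sorted seedlings, and both root libraries lay above all 8 whole-seedling libraries (adjusted p = 0.401 against sorted seedlings by limma). WRKY30, induced by oxidative stress, had 210 and 0 bases in roots, against 497 and 303 in sorted seedlings, and lay below all 8.

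WRKY17 of the same list had 1835 and 1731 bases in roots, against 1545 and 1478 in sorted seedlings, above all 8 whole-seedling libraries. Its lower-coordinate end alone was called higher against the 4 groups, with 635 and 531 bases in roots, against 345 and 278 in sorted seedlings (difference 351.4 bases, adjusted p = 0.0358 by limma). The group IIa genes did not separate: WRKY60 had 2161 and 2006 bases in roots, against 2026 and 2282 in sorted seedlings, WRKY18 had 1200 and 326 bases in roots, against 1200 and 1200, and WRKY40 had 1150 and 251 bases in roots, against 884 and 784 in sorted seedlings. The spread between the root libraries of WRKY18 and WRKY40 was wider than the difference between the groups.

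Group III was the group with the lowest median level. Of its 13 tested members 5 were higher and 8 lower in roots against sorted seedlings (median -70.0 bases). This turned to 10 higher and 3 lower after quantile normalization (median 67.7 bases) and after division by covered length (median 68.4 bases). As for the immune list, the majority of all genes turned as well, with the counts given where all members were set against sorted seedlings. Several group III genes differed more between libraries of a group than between groups. WRKY62 had 269 and 0 bases in roots, against 714 and 0 in sorted seedlings, and 353 and 0 with 500 nuclei, 283 and 340 in crude nuclei and 649 and 0 in H2AX-GFP seedlings. WRKY46, which acts in salicylic acid and iron responses, had 1541 and 0 bases in roots, against 320 and 332 in sorted seedlings, with 0 and 0 with 500 nuclei, 0 and 1063 in crude nuclei and 832 and 0 in H2AX-GFP seedlings. WRKY54 and WRKY55 lie next to each other on chromosome 2 and their windows share bases, so they are not independent. WRKY63, which acts in abscisic acid responses, had 734 and 697 bases in roots, against 927 and 737 in sorted seedlings, a difference of -116.5 bases that changed sign under both other scalings.

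Of the seed, pollen and flower list, 7 of 8 genes were tested and 0 passed. Its mean relative to all genes was 0.648 and 0.702 in roots, against 0.628 and 0.546 in sorted seedlings, and below 1 in all 10 libraries. WRKY10, a regulator of seed size, had 166 and 0 bases in roots, against 328 and 238 in sorted seedlings, and lay below all 8 whole-seedling libraries (adjusted p = 0.269 against the 4 groups by limma). WRKY44, which acts in trichomes and seed coats, had 891 and 710 bases in roots, against 726 and 552 in sorted seedlings. WRKY2, which acts in pollen and the zygote, had 688 and 594 bases in roots, against 612 and 546 in sorted seedlings. The members fused to immune receptor domains were WRKY16, with 692 and 1079 bases in roots, against 1257 and 1761 in sorted seedlings (adjusted p = 0.474 by limma), and WRKY19, with 319 and 260 bases in roots, against 487 and 361 in sorted seedlings (adjusted p = 0.889 by limma). Both receptor fusions were lower in both root libraries than in both sorted seedling libraries. Among the remaining members so ordered, WRKY3, which acts against necrotrophic fungi, had 887 and 664 bases in roots, against 1121 and 1235 in sorted seedlings. WRKY49 had 132 and 172 bases in roots, against 487 and 375 in sorted seedlings, below all 8 whole-seedling libraries. WRKY26, which acts in heat tolerance, was higher, with 1682 and 1425 bases in roots, against 1280 and 736 in sorted seedlings.

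Coverage between the annotated gene ends gave another set of members. On this measure 59 members and 20741 genes were tested. Against the 4 whole-seedling groups, 4 members were called higher (1.05% of all genes) and 1 lower (1.12% of all genes), and against sorted seedlings 1 was called higher (0.304% of all genes) and 0 lower (0.323% of all genes). The call against sorted seedlings was WRKY31. It had 938 and 1026 bases inside the gene in roots, against 350 and 212 in sorted seedlings and 241.4 ± 79.5 bases over the 8 whole-seedling libraries (SD, n = 8). The difference was 701.0 bases from sorted seedlings (adjusted p = 0.0268 by limma) and 740.6 bases from the 4 groups (adjusted p = 0.00581). WRKY14 had 1819 and 1739 bases inside the gene in roots, against 894 and 184 in sorted seedlings and 344.0 ± 342.8 bases over the 8 whole-seedling libraries (SD, n = 8), with an adjusted p of 0.0273 against the 4 groups (limma). Every whole-seedling library of WRKY14 and WRKY31 lay below both root libraries.

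WRKY29 had 866 and 464 bases inside the gene in roots, against 188 and 149 in sorted seedlings, with an adjusted p of 0.0490 against the 4 groups by limma. WRKY75 had 171 and 197 bases inside the gene in roots, against 30 and 0 in sorted seedlings, with an adjusted p of 0.0219 against the 4 groups by limma. The member called lower was WRKY70, which acts in salicylic acid signalling and senescence. It had 282 and 327 bases inside the gene in roots, against 850 and 645 in sorted seedlings, 417 and 408 with 500 nuclei, 1091 and 1016 in crude nuclei and 1554 and 1913 in H2AX-GFP seedlings (adjusted p = 0.0453 against the 4 groups by limma). All 8 whole-seedling libraries lay above both root libraries, the 500-nuclei libraries by the least. Near its ends, WRKY70 did not separate, with 1200 and 1191 bases in roots, against 1711 and 1081 in sorted seedlings.

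**Figure D5:**
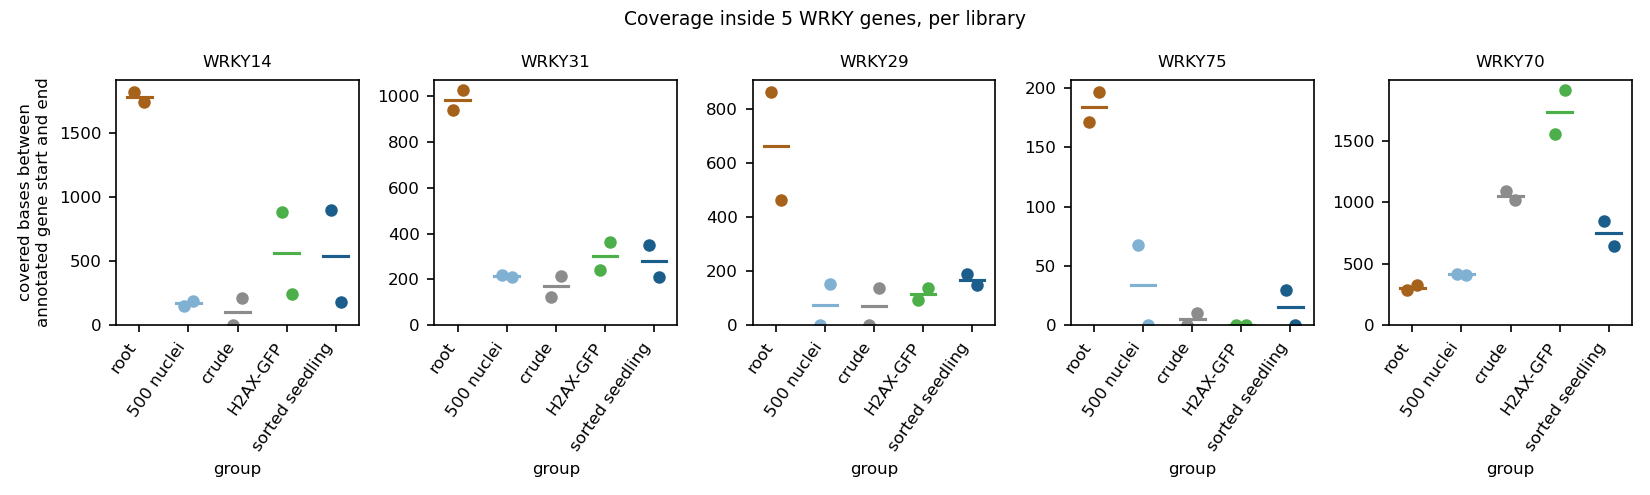
Covered bases between the annotated gene ends (vertical axis, a scale of its own for each gene) for WRKY14, WRKY31, WRKY29, WRKY75 and WRKY70 in each library (points) and group (horizontal bars are group means, n = 2). For the first 4 genes both root points lie above all whole-seedling points, and for WRKY70 both lie below them.

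The second question was whether 500 nuclei gave the WRKY profile of 50000. With 500 nuclei 63 of the 66 members were lower than in sorted seedlings, 1 was higher and 2 were equal, with a median of -197.0 bases beside -211.5 bases for all genes, of which 94.2% were lower. Libraries of 500 nuclei lay below both sorted seedling libraries for 34 members (55.3% of all genes) and above both for 0 (0.243% of all genes). No member and no gene of the genome was called by limma, and 5 members had an unadjusted p under 0.05 (7.44% of all genes). Regions covered 15.77 and 13.868 Mb in all with 500 nuclei, against 22.394 and 21.017 Mb in sorted seedlings. After division by covered length 34 members were higher and 30 lower, with a median of 15.1 bases beside 6.3 bases for all genes. WRKY36 had 1183 and 624 bases with 500 nuclei, against 1626 and 1727 in sorted seedlings (adjusted p = 0.664 by limma). WRKY15 had 1634 and 1563 bases with 500 nuclei, against 2046 and 2400 in sorted seedlings. WRKY33 had 1200 and 820 bases with 500 nuclei, against 1345 and 1786, and WRKY48 had 1134 and 486 bases with 500 nuclei, against 1410 and 1563 in sorted seedlings. WRKY8, which acts in virus and salt responses, had 1268 and 486 bases with 500 nuclei, against 1507 and 1309 in sorted seedlings.

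Crude nuclei were lower than sorted seedlings for 54 of the 66 members, higher for 11 and equal for 1, with a median of -217.0 bases beside -138.0 bases for all genes. After quantile normalization 28 were higher and 38 lower (median -38.3 bases beside 26.1 for all genes), and after division by covered length 30 were higher and 35 lower (median -21.9 bases beside 33.9 for all genes). Both crude libraries lay below both sorted seedling libraries for 29 members (32.4% of all genes) and above both for 2 (7.08% of all genes). No member and no gene was called by limma, and 9 members had an unadjusted p under 0.05 (9.48% of all genes). Crude replicate 1 had the smallest covered length of all libraries, 13.78 Mb, and its WRKY mean was 535.0 bases, against 816.1 bases in crude replicate 2. WRKY6 had 873 and 1829 bases in crude nuclei, against 1984 and 2400 in sorted seedlings (adjusted p = 0.536 by limma). WRKY60 had 949 and 1711 bases in crude nuclei, against 2026 and 2282 in sorted seedlings. WRKY42 had 226 and 917 bases in crude nuclei, against 1651 and 972 in sorted seedlings. WRKY28 had 785 and 1130 bases in crude nuclei, against 1632 and 1698 in sorted seedlings (adjusted p = 0.347 by limma), and WRKY22 had 659 and 1034 bases in crude nuclei, against 1409 and 1661 in sorted seedlings. The members above both sorted seedling libraries were WRKY43, which acts in seed oil, with 610 and 831 bases in crude nuclei, against 537 and 502, and WRKY32, with 1447 and 1526 bases in crude nuclei, against 1445 and 1362 in sorted seedlings.

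The third comparison set the 35S:H2AX-GFP line against wild-type sorted seedlings. Of the 66 members 31 were higher and 35 lower, with a median of -9.8 bases beside 23.5 bases for all genes. After quantile normalization 22 were higher and 44 lower (median -69.7 bases beside -18.2 for all genes), and after division by covered length 19 were higher and 47 lower (median -110.7 bases beside -47.5 for all genes). Both H2AX-GFP libraries lay above both sorted seedling libraries for 4 members (13.4% of all genes) and below both for 8 (4.81% of all genes). No member and no gene was called by limma, and 0 members had an unadjusted p under 0.05 (3.18% of all genes). WRKY33 had 964 and 1035 bases in H2AX-GFP seedlings, against 1345 and 1786 in sorted seedlings. WRKY36 had 1533 and 948 bases in H2AX-GFP seedlings, against 1626 and 1727 in sorted seedlings. WRKY28 had 1329 and 1313 bases in H2AX-GFP seedlings, against 1632 and 1698, and WRKY22 had 1165 and 1368 bases in H2AX-GFP seedlings, against 1409 and 1661 in sorted seedlings. WRKY47 had 2029 and 2259 bases in H2AX-GFP seedlings, against 2328 and 2269 in sorted seedlings. WRKY26 was higher, with 1493 and 1599 bases in H2AX-GFP seedlings, against 1280 and 736 in sorted seedlings. WRKY59 had 668 and 608 bases in H2AX-GFP seedlings, against 526 and 225, WRKY19 had 591 and 586 bases in H2AX-GFP seedlings, against 487 and 361, and WRKY10 had 360 and 334 bases in H2AX-GFP seedlings, against 328 and 238 in sorted seedlings.

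WRKY28 and WRKY22 were below both sorted seedling libraries in all 4 groups set against them, also with 500 nuclei, where WRKY28 had 1244 and 1165 bases and WRKY22 had 1212 and 1354 bases. All 4 comparisons with sorted seedlings share those 2 libraries, so these directions are not independent.

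Other genes of the WRKY pathway were taken as a list of 25: receptors and the MAP kinase cascade, VQ proteins that bind WRKY factors, salicylic acid genes and WRKY targets. All 25 were tested. In roots against sorted seedlings 9 were higher and 16 lower (30.2% and 67.7% of all genes). Of the 25, 1 was called higher and 0 lower (0.105% and 0.578% of all genes). Against the 4 groups 13 were higher and 12 lower (44.1% and 55.8% of all genes), with the same gene called higher (0.603% of all genes). It was PHO1, the target of WRKY6 and WRKY42, with 595 and 450 bases in roots, against 0 and 0 in sorted seedlings (adjusted p = 0.0424 by limma). PHO1 was at 0 in the 500-nuclei and crude libraries too and had 334 and 327 bases in H2AX-GFP seedlings. It was also among the root genes on which the tissue labels were checked. PHT1;1, the target of WRKY45 and WRKY75, had 1634 and 1765 bases in roots, against 1200 and 1024 in sorted seedlings (adjusted p = 0.703 by limma). ICS1 (EDS16 in RefSeq), the target of WRKY28, had 1200 and 644 bases in roots, against 1353 and 1200 in sorted seedlings. PAD3, the target of WRKY33 in camalexin synthesis, had 516 and 523 bases in roots, against 681 and 0 in sorted seedlings. Within the comparison of roots with sorted seedlings, the largest difference in the list was that of CBP60g, a salicylic acid gene, at -820.5 bases (adjusted p = 0.445 by limma). None of the 25 was called with 500 nuclei, in crude nuclei or in the H2AX-GFP line.

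WRKY genes stood in emptier neighbourhoods than the average gene. The windows of 29 of the 71 members (40.8%) held no other protein-coding gene, against 19.6% of all genes, while the median gene length was 2110 bases for members and 2078 bases for all genes. Among genes without a neighbour in the window, WRKY coverage relative to all genes was 1.671 at the lowest and 1.914 at the highest root library, against 1.211 and 1.562 at the lowest and highest whole-seedling library. Among genes with a neighbour it was 1.263 and 1.317 in roots, against 0.979 and 1.161 at the lowest and highest whole-seedling library. Both root libraries lay above all 8 whole-seedling libraries in either class. Chromosome 1 held 16 members of 7156 genes, chromosome 2 held 17 of 4317, chromosome 3 held 6 of 5460, chromosome 4 held 16 of 4180 and chromosome 5 held 16 of 6331.

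Regions that touched WRKY windows were wider than the median region in each library, and a wide region is likelier to touch a window, which was not adjusted for. Their median width was 1047.0 and 687.5 bases in roots, against 647.0 and 548.0 bases for all regions of those libraries. In sorted seedlings it was 726.0 and 689.0 bases, against 634.0 and 652.0 bases for all regions. The authors gave each region a score, used here only to rank regions within a library. A region among the top 10% by score touched the windows of 20 and 17 members in roots (28.2% and 23.9%, against 14.4% and 12% of all genes) and of 16 and 16 members in sorted seedlings (22.5% in both, against 15.2% and 14.1% of all genes). In the other 6 libraries it touched 10 to 14 members, and the share of members was above that of all genes in 4 and below it in crude replicate 2 (14.1%, against 14.2% of all genes) and H2AX-GFP replicate 1 (15.5%, against 16.8% of all genes).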

How the data were processed

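For each library the authors deposited called regions with start and end coordinates and a score, on TAIR10 per the submitters' processing notes. What the deposited score is, and the peak caller, was not given in the sources used here. No read depth is known, so no interval from counts is given. Gene positions and names were taken from RefSeq (TAIR10.1), whose nuclear chromosomes were taken to have the coordinates of TAIR10. No strand was used, so ends are named by coordinate. Of 14 samples, 4 (genomic DNA, maize, a set number of reads) were not analysed here.

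Covered bases per gene (numpy 2.4.6, pandas 2.3.3) entered 1 linear model over all 10 libraries in limma 3.58.1 (R 4.3.3). It used eBayes with trend and robust, genes covered in at least 2 libraries, and p-values adjusted over all genes in each of 5 contrasts. The fit was tried on simulated data with full losses in covered genes and gains in uncovered genes. Smaller differences in covered genes were not simulated. Alternatives changed the window, scaling, filter, fit, region set and libraries, and 2 were added after seeing the data: leaving out bases in neighbouring genes, and leaving out a root library from the relative coverage. Named members were those called, those with the largest differences among members whose groups did not overlap, and those with the highest and lowest levels; members called at 1 end or inside the gene, and others given with their role list, were picked with their values seen. The members, lists and tests were chosen with earlier results of these data known.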

Additional observations from a re-analysis of the deposited data

How the results depend on the processing

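The WRKY calls in roots changed with the settings, and so did the calls over all genes. Against sorted seedlings 163 genes in all were called, 311 with 500 bp, 47 with 2000 bp and 46 after division by covered length. The number was 317 with the higher-coordinate end alone, 277 without a filter and 254 without trend and robust fitting. It was 264 without bases in neighbouring genes. With genes covered in at least 4 libraries 144 were called, and 0 with only the compared groups fitted. Against the 4 groups 481 were called, 451 on the gene span, 1075 after quantile normalization and 376 with 2000 bp. The number was 770 with the better-scoring 50% of regions, 730 with equal numbers of regions and 516 without bases in neighbouring genes. Leaving out a library left 1 in its group, and calls over all genes moved there too. Against sorted seedlings 1 member was called, and 3 were with 500 bp outside the gene ends, 2 with the higher-coordinate end alone, without a filter, or without trend and robust fitting. Without bases in neighbouring genes WRKY69 was lost and WRKY28 was called lower (adjusted p = 0.0384 by limma). WRKY28 was called lower under 7 of 25 alternatives (adjusted p between 0.0112 and 0.805), among them each of those that gave 2 or 3 calls. None (0) was called with 2000 bp outside the ends, after division by covered length, with genes covered in at least 4 libraries, or with only the compared groups fitted. Leaving out each library in turn gave 0 to 2 calls, 0 without either root, sorted seedling, 500-nuclei or H2AX-GFP library. Against the 4 whole-seedling groups 2 members were called, 5 on the gene span, 4 after quantile normalization, with the better-scoring 50% of regions or with equal numbers of regions, 1 without bases in neighbouring genes, 0 with 2000 bp outside the ends, and 0 to 2 when each library was left out (0 without either root library). The other 3 comparisons gave 0 WRKY calls under every alternative run. Same-numbered libraries deviated together to different degrees: the correlation over genes was 0.297 to 0.514 for 4 of the 10 pairs of groups (all 3 pairs among sorted seedlings, 500 nuclei and H2AX-GFP, and roots with H2AX-GFP) and between -0.22 and 0.095 for the other 6. Not every pair exceeded 0.1, so the numbers were not taken to pair the libraries. With the replicate block, 0 members were called against sorted seedlings (WRKY69 adjusted p = 0.0538 by limma) and 1, WRKY69, against the 4 groups (WRKY57 adjusted p = 0.0569). WRKY69 was called against sorted seedlings under 8 of 25 alternatives (adjusted p between 0.0121 and 0.340) and against the 4 groups under 18 of 24 (0.00237 to 0.105), and WRKY57 against the 4 groups under 11 of 24 (0.00537 to 0.910).

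Relative coverage in roots was 1.467 and moved to 1.378 with 500 bp, 1.661 on the gene span, 1.381 at the lower-coordinate end, 1.550 at the higher-coordinate end, 1.769 with better-scoring regions and 1.700 without neighbouring genes. In whole seedlings it was 1.172 and moved to 1.085 at the lower end, 1.257 at the higher end and 1.360 without neighbouring genes. It was above the whole-seedling value in roots in each of these. The 52 members covered in all libraries became 28 on the gene span, 32 at either end and 30 with better-scoring regions. Directions of many members moved under the other scalings, as the counts of higher and lower members show, and these members are not all listed here. Among members named in a comparison as called or for the size of their difference, some differences changed sign, none of them called. In roots against sorted seedlings these were WRKY63 (38.1 bases after quantile normalization, 17.2 after division by covered length), WRKY3 (127 on the span), WRKY48 (283 on the span) and WRKY19 (3 at the higher end). Elsewhere they were WRKY15 with 500 nuclei (103.3 after division by covered length), WRKY32 in crude nuclei (-71.5 at the higher end and with better-scoring regions), and in H2AX-GFP seedlings WRKY33 (678.5 on the span), WRKY47 (312.5 on the span, 4 at the lower end), WRKY19 (-16.5 on the span) and WRKY26 (-7 with better-scoring regions). The causes were not tested. With 2 libraries a group, unknown depth and a measure that tops out at 2400 bases, differences near the ceiling and small differences cannot be resolved.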

Other observations

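RRS1, an immune receptor that ends in a WRKY domain, carries the family name only as the synonym ATWRKY52 and so fell outside the members. It had 1009 and 1015 bases in roots, against 851 and 977 in sorted seedlings, and 632 and 950 with 500 nuclei, 927 and 660 in crude nuclei and 931 and 1200 in H2AX-GFP seedlings. Both root libraries lay above both sorted seedling libraries, and the difference of 98.0 bases had an adjusted p of 0.971 by limma.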
